A study of Mus musculus with 16 samples.

Results

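The effect of laser power on crosslinking of the RNA-binding protein Dazl was followed at the lower of 2 Dazl levels, labelled 1x. Of the series' 16 samples, 12 had a processed library, and 6 of these make up the comparison: 2.6 mW and 1 mW at 1x Dazl, each after 30, 180 and 680 s of crosslinking. All came from a monoclonal line (1 clone) derived from mouse GC-1 spg cells, a spermatogonial line, in which doxycycline induces Dazl, and every group carried that transgene and its induction. The 0 s samples were not analysed here, and an uncrosslinked background is therefore missing from every comparison. Libraries of like time were paired, which gave 3 pairs with 1 library per condition. Intervals listed in any of the 12 libraries and at most 10 nt apart were joined into 8338 regions, the widths times the deposited values were summed into a coverage per region, and the 7838 regions that could be given to 1 gene were summed over 3203 genes, 3166 of them protein-coding.

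Dazl is a germ cell protein of the DAZ family that binds mRNA, mostly in 3′ untranslated regions, through a single RNA recognition motif with a preference for GUU, and regulates the stability and translation of its targets. In crosslinking and immunoprecipitation, ultraviolet light joins the protein to RNA it touches, and the site is read from the cDNA made of the linked RNA. In a time-resolved design with a pulsed laser, more light or a longer exposure gives more linked molecules on a site until the molecules that can be linked are used up. Comparing laser powers at matched times asks how far the deposited coverage of each RNA follows the amount of light.

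The deposited values are whole numbers that the authors call normalized coverage, and their depth in reads is unknown. Every region had a value in every library, and the lowest coverage of a region was 1 in 5 of the 6 libraries and 2 in the 680 s, 2.6 mW library. Libraries of 1 laser power were not independent in these values. At 1 mW, 0 of 8338 regions were higher at 180 s than at 30 s (7032 equal, 1306 lower), and 0 were lower at 680 s than at 180 s. At 2.6 mW the order was mixed, with 2437 regions higher and 3754 lower at 180 s than at 30 s. All p-values below take the libraries as independent and rest on pairs that also differ in time. In the gene fits the spread is in part pooled over genes, and mainly so in the fit centred on the median gene. Of 14 spermatogonial and germ cell markers, Sall4, Mov10l1 and Rhox13 had a region, with a summed coverage of 3 to 7 per library, the lowest being 3 in both early libraries of 1 mW. Dazl itself had no region. Of 6 fibroblast and matrix markers, Col1a1, Col1a2 and Pdgfra had regions, with sums from 69 to 1564, and no Leydig cell or macrophage marker had one. Of 7 Sertoli cell markers, Wt1 and Dhh had regions, with sums from 2 to 49, and of 4 endothelial markers Kdr had, with sums from 1 to 7. How listed sites were picked is not stated, and these markers were not taken as a check of the cell label.

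Most regions, 6798 of 8338, were 17 nt long. For the 113 of them that lie between 250 nt before and 50 nt after a RefSeq gene start, the sequence could be read from the RefSeq promoter table of GRCm38.p6. Read on the forward strand of the genome, 53 of the 113 (46.9%) had GTT at bases 8 to 10, the exact centre, and 0 had its reverse complement AAC there. At the other 14 places no more than 3 of the 113 began a GTT. Over all 9329684 windows of 17 nt in 32851 promoters, 1.2% have GTT and 1.2% have AAC at the centre on that strand. The centring did not follow the gene's strand: 25 of 53 regions in genes of the plus strand and 10 of 21 in genes of the minus strand had it, although RNA of the latter reads AAC at those bases. The files give no strand. The sequences below are shown because they have the same centre and different responses to light. They are written 5′ to 3′ on the forward strand with bases 8 to 10 in capitals.
Stk11, chr10:80115770-80115786, plus-strand gene: gtccaccGTTgcgacgt
Acap3, chr4:155891861-155891877, plus-strand gene: cggctatGTTtcctgtc
Vhl, chr6:113624023-113624039, plus-strand gene: ccttcaaGTTgcccgga
Gigyf2, chr1:87327030-87327046, plus-strand gene: atcttgtGTTgttgagg
Dad1, chr14:54253895-54253911, minus-strand gene: cgtgcgcGTTagcgggc
Smarcal1, chr1:72583247-72583263, plus-strand gene: aaatgtaGTTcgacggt
Vcl, chr14:20929392-20929408, plus-strand gene: ggggctaGTTacgccga
Rtn4, chr11:29693703-29693719, plus-strand gene: gctgcgcGTTacgcccc
Appbp2, chr11:85235081-85235097, minus-strand gene: gagcccaGTTccgtcca

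The site in Stk11, the tumour suppressor kinase also called LKB1, went from 2 to 55 at 30 s, from 1 to 41 at 180 s and from 21 to 48 at 680 s as power rose from 1 to 2.6 mW. The site in Dad1, a subunit of oligosaccharyltransferase, went from 1 to 61, from 1 to 39 and from 14 to 37. Vhl, the substrate receptor of a ubiquitin ligase, went from 1 to 27, from 1 to 17 and from 10 to 28. In these 3 sites the 2.6 mW coverage at 30 s was close to or above that at 680 s. Rtn4, a reticulon of the endoplasmic reticulum, stayed at 1 at both powers at 30 s and at 180 s and went from 6 to 17 at 680 s. Appbp2 likewise stayed at 1 in all early libraries and went from 7 to 35 at 680 s. Vcl, the focal adhesion protein vinculin, had 1 and 2 at 30 s, 1 and 1 at 180 s, and 4 and 25 at 680 s. A site with GTT at its centre could thus respond to power at the early times or at 680 s alone. Over the 53 centred sites the median was 1 at 1 mW and 5 at 2.6 mW at 30 s, and over the other 60 it was 1 and 3. At 680 s the medians were 7 and 25 against 7.5 and 23.5. These sites are members of a set near gene starts, and no test was made over them.

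The 2.6 mW library had more total coverage at each time. At 30 s the total was 14910 at 1 mW and 92228 at 2.6 mW, 6.19-fold higher. At 180 s it was 11271 and 86071, 7.64-fold higher. At 680 s it was 79527 and 204474, 2.57-fold higher. The mean log2 ratio was 2.31 ± 0.833 (SD, n = 3 pairs), or 4.95-fold, with an exact two-sided sign-flip p of 0.25, the smallest that 3 pairs allow. The number of listed intervals and the value per position both moved, by log2 ratios of 1.82 and 0.557 at 30 s, 2.03 and 0.576 at 180 s, and 0.829 and 0.533 at 680 s.

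**Figure D1:**
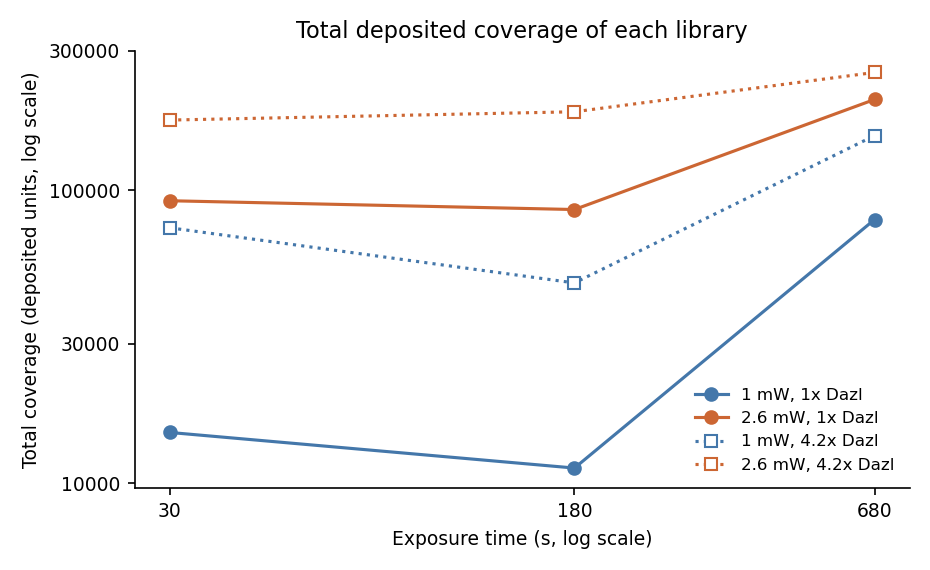
Total deposited coverage (log scale) of each library against exposure time in s (log scale), 1 point per library, with filled circles for 1x Dazl and open squares for 4.2x Dazl. The 1x libraries of 2.6 mW stand at 92228, 86071 and 204474, each above the 1 mW library of like time at 14910, 11271 and 79527.

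Exposure is power times time, and coverage was not ordered by that product. The 30 s library of 2.6 mW received 78 mW s and the 180 s library of 1 mW received 180 mW s, yet the former had 8.18-fold the coverage, with 2727 of 3203 genes higher, 470 equal and 6 lower. The 180 s library of 2.6 mW, at 468 mW s, had 1.08-fold the total of the 680 s library of 1 mW, at 680 mW s. In that pair 1469 genes were higher and 1393 lower at 2.6 mW, with a median log2 ratio of 0. In 1778 genes with a mean coverage of at least 10 over the 6 libraries, the median share of a gene's own 680 s coverage present at 30 s was 15.4% at 1 mW (quartiles 11.1% and 22.5%) and 46.6% at 2.6 mW (31.6% and 62.5%). At 180 s it was 13.3% and 44.7%.

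**Figure D2:**
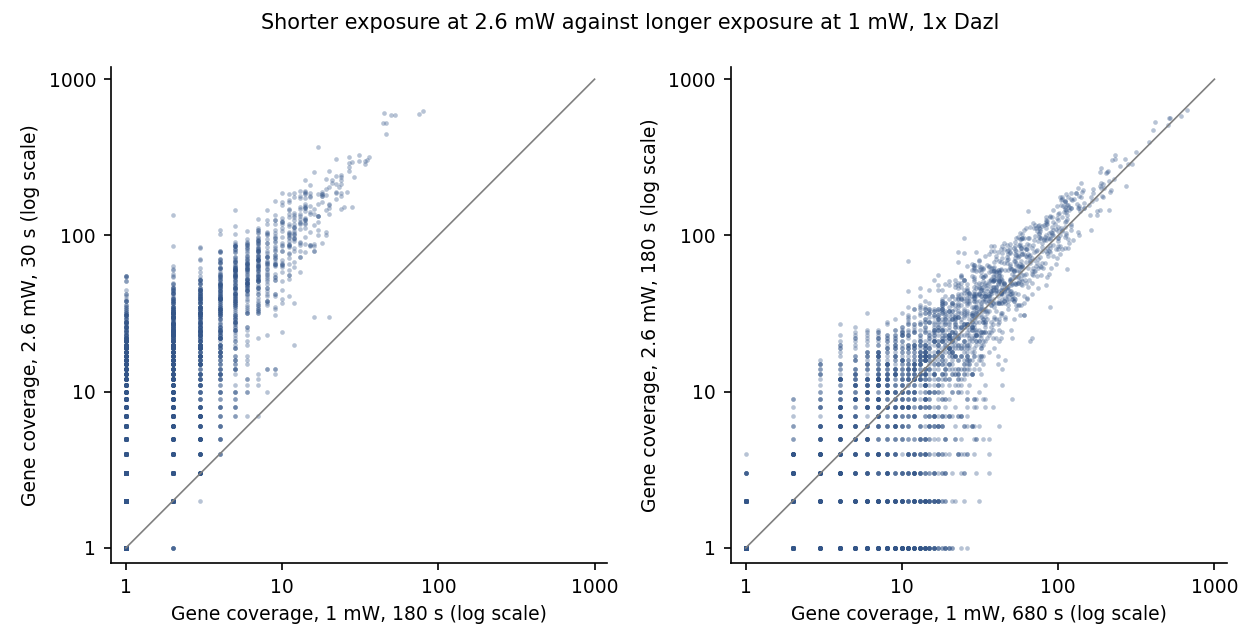
Coverage of each of 3203 genes (log scales, deposited units, 1 point per gene) in a shorter exposure at 2.6 mW against a longer one at 1 mW, with the line of equality. On the left (30 s against 180 s) 2727 genes lie above the line and 6 below; on the right (180 s against 680 s) 1469 lie above and 1393 below.

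Most genes had more coverage at the higher power. At 30 s 2681 genes were higher at 2.6 mW, 467 equal and 55 lower. At 180 s 2575 were higher, 615 equal and 13 lower, and at 680 s 3132 were higher, 71 equal and 0 lower. The lowest value of a region at 680 s was 1 at 1 mW and 2 at 2.6 mW. The 310 genes with every region at 1 in that 1 mW library could therefore only be higher, and their rise shows no response to power. The median gene's log2 ratio, taken here and below on log2(value + 3), was 1.32, 1.58 and 1.14 at the 3 times. In limma with time as a block, on the values as deposited, 2347 of 3203 genes (73.3%) rose at an adjusted p (Benjamini-Hochberg) under 0.05 and 0 fell, and 0 fell at an unadjusted p under 0.05. That count was 0 without the 30 s pair, 0 without the 180 s pair, 0 without the time block and 1756 without the 680 s pair. In both early libraries of 1 mW, 1997 genes (62.35%) had every region at the lowest value of 1, so their fold at those times depends on that lowest value.

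The 10 genes with the highest mean coverage rose together. The nuclear noncoding RNA Neat1, the scaffold of paraspeckles, had 121 at 1 mW and 627 at 2.6 mW at 30 s, 80 and 636 at 180 s, and 668 and 1615 at 680 s. Malat1, a noncoding RNA of nuclear speckles, had 53 and 604, 45 and 581, and 613 and 1639. These neighbours on chromosome 19 thus had like coverage at 680 s and in all libraries of 2.6 mW, while Malat1 was lower in both early libraries of 1 mW. Thbs1, an adhesive glycoprotein of the matrix, had 119 and 600, 75 and 563, and 510 and 1280. Col1a1, which encodes a type I collagen chain, had 77 and 591, 53 and 509, and 506 and 1269. Sdc4, a heparan sulfate proteoglycan, had 34 and 319, 27 and 344, and 317 and 874. At 30 s the fold was 11.4 in Malat1, 9.38 in Sdc4, 7.68 in Col1a1, 5.18 in Neat1 and 5.04 in Thbs1. At 680 s these 5 lay between 2.42 and 2.76. As deposited, the limma estimate for Malat1 was 2.82 ± 0.70 on the log2 scale (SE; adjusted p = 0.00272) and that for Neat1 was 2.19 ± 0.70 (adjusted p = 0.012). The desaturase Scd2, the metalloproteinase inhibitor Timp2, the lectin chaperone Canx, the disulfide isomerase Pdia3 and the membrane protein Tm9sf3 complete the list, with folds of 5.67 to 7.74 at 30 s, 8.47 to 12.1 at 180 s and 2.33 to 2.81 at 680 s.

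At 30 and 180 s the size of the gain followed a gene's coverage. In 10 classes of 680 s coverage (mean over both powers), the median log2 ratio at 30 s was 0 in the lowest class, 1.17 in class 5 and 2.64 in the highest. At 180 s it was 0, 1.36 and 2.87. At 680 s it was 0.322, 1.1 and 1.32. In the lowest class both quartiles at 680 s were 0.322 as well, which is the ratio of the lowest values, 2 at 2.6 mW and 1 at 1 mW. The 680 s libraries also set the classes, so nothing is read from the order of their ratios. In the lowest class 310 of 312 genes were at the lowest value in both early libraries of 1 mW, and in the highest 8 of 320. On the log2(value + 3) scale the same fold is smaller in a gene of low coverage, and a gene at 1 can only stay or rise.

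**Figure D3:**
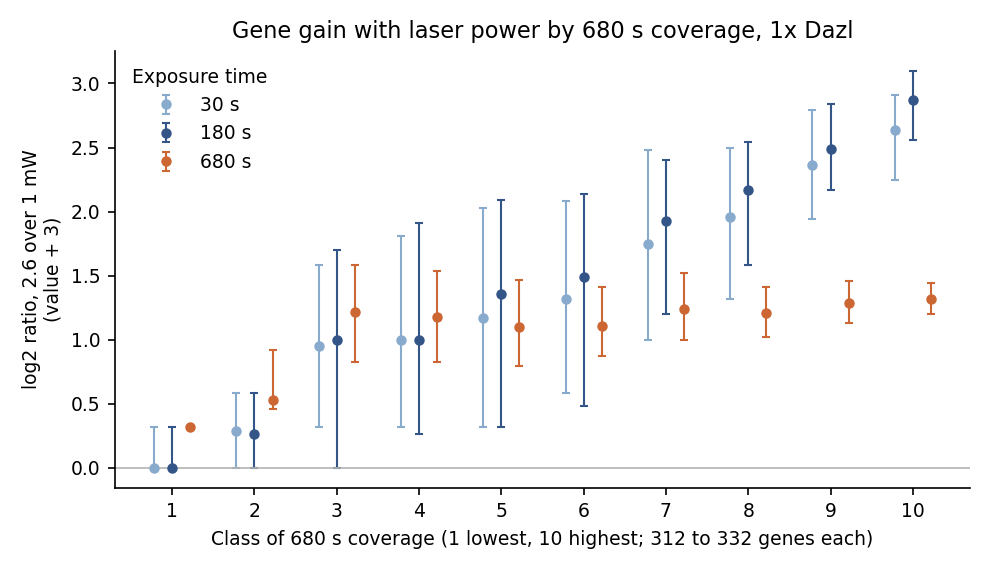
Median (points) and quartiles (bars) over genes of the log2 ratio of 2.6 over 1 mW on value + 3, in 10 classes of 680 s coverage, at 30, 180 and 680 s. The medians at 30 s run from 0 in class 1 to 2.64 in class 10, and those at 680 s from 0.322 to 1.32.

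Relative to the median gene, 385 of 3203 genes (12.0%) gained more and 878 (27.4%) gained less in limma after each library was centred on its median gene. Of these, 205 and 746 were at the lowest value in both early libraries of 1 mW. The sign was the same in 3 of 3 pairs in 331 and 775. Centring does not remove the dependence of the ratio on coverage. Of those that gained less, 815 had a mean coverage under 10, and of those that gained more, 2 did. All 296 genes whose regions stood at the lowest value in both 680 s libraries as well were among the 878. With centring on genes above the lowest value in all 1 mW libraries the counts were 107 and 986, with scaling to the library total 36 and 1130, without the time block 225 and 27, and with all 12 libraries in the fit 704 and 924. Scaling to the total moved the median departure of all genes from -0.03 to -0.96. Among the 1778 genes with a mean coverage of at least 10, centred on their own median, 20 (1.12%) gained more and 15 (0.844%) less, and 20 and 12 of these are among the 385 and 878. That mean is taken over both powers, so a gene's own gain bears on whether it enters (Adsl does with 1, 1 and 6 at 1 mW, and Trim21 with 12, 2 and 8 does not), and nothing is read from the balance of these counts. The counts over all genes were 1 and 199 without the 30 s pair, and 4 and 230 without the 180 s pair.

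The genes that gained most had far more coverage in the early libraries of 2.6 mW than in those of 1 mW. Of those given here, all but Sparc had at most 6 units in the early libraries of 1 mW. Lrrc28, a gene for a leucine-rich repeat protein, had 1 and 51 at 30 s, 1 and 69 at 180 s, and 11 and 80 at 680 s, in 1 region of 17 nt at chr7:67531765-67531781. It gained 2.11 ± 0.34 (SE, log2) over the median gene, with a limma adjusted p of 7.77e-09. That region also lies in the span of a noncoding RNA gene, and without strand the reads cannot be placed in either gene for certain. Foxp1, a forkhead transcription factor, had 2 and 85, 2 and 78, and 23 and 106 in 2 neighbouring regions. Its gain over the median gene was 2.02 ± 0.38 (adjusted p = 1.04e-06). Adsl, the adenylosuccinate lyase of purine synthesis, had 1 and 55, 1 and 32, and 6 and 37. At 2.6 mW Adsl thus had more at 30 s than at 680 s. Dynll2, a dynein light chain, had 6 and 115, 5 and 96, and 25 and 108 in 5 regions.

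The other 3 genes given here were Slc39a10, Pdap1 and Sparc. Slc39a10, a zinc importer, had 4 and 102, 4 and 70, and 31 and 107. Pdap1 had 2 and 61, 2 and 46, and 13 and 57. Sparc, a collagen-binding matrix protein, had 24 and 370, 17 and 326, and 232 and 585 in 14 regions. In all 7 genes the 2.6 mW library was above the 1 mW library at every time, and both early 2.6 mW libraries were also above the 680 s library of 1 mW. Departures of the 7 lay between 1.58 and 2.11, with adjusted p of at most 0.00959. Without the 30 s pair Dynll2, Sparc, Slc39a10, Foxp1, Pdap1 and Adsl no longer passed. Without the 180 s pair Dynll2, Pdap1, Slc39a10 and Sparc did not, and without the 680 s pair Adsl did not.

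The genes that gained least had a coverage at 2.6 mW below that at 1 mW in an early pair. Trim21, a ubiquitin ligase that binds antibodies in the cytosol, had 12 at 1 mW and 1 at 2.6 mW at 30 s, 2 and 1 at 180 s, and 8 and 13 at 680 s, in 1 region at chr7:102559565-102559581. Hoxc12, a homeobox transcription factor, had 17 and 6, 4 and 2, and 11 and 19. Pkhd1l1 had 6 and 1, 2 and 1, and 11 and 17. Larp4b, an RNA-binding protein of the La-related family, had 7 and 2, 3 and 2, and 10 and 19. Fras1, a basement membrane protein, had 4 and 1, 2 and 1, and 11 and 19. In these 5 genes, each with 1 region, the order of the powers was turned at 30 and 180 s, and at 680 s the 2.6 mW library was the higher.

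The other 3 of the 8 smallest gains were the ubiquitin-conjugating enzyme Ube2o with 5 and 1, 1 and 1, and 8 and 17, the odorant receptor Olfr553 with 2 and 1, 1 and 1, and 2 and 2, and the potassium channel subunit Kcnmb2 with 3 and 2, 2 and 2, and 3 and 4. Departures of the 8 lay between -1.95 and -1.40. Trim21 departed by -1.95 ± 0.35 (limma adjusted p = 4.32e-07) and Hoxc12 by -1.71 ± 0.30 (adjusted p = 1.53e-07). As deposited, without centring, the estimates of all 8 were negative and none passed the threshold. Trim21 had -0.56 ± 0.38 (limma adjusted p = 0.184) and Hoxc12 -0.33 ± 0.34 (adjusted p = 0.392). Without the 30 s pair the departures of all but Olfr553 no longer passed, without the 180 s pair those of Fras1, Kcnmb2 and Ube2o did not, and without the 680 s pair that of Kcnmb2 alone did. All 8 had a mean coverage under 10 and did not enter the fit of the 1778. In all 3203 genes, 11 were lower at 2.6 mW at both 30 and 180 s: Sdccag8, Psmb7, Ccdc141, Fras1, Trim21, Slc25a4, Yipf2, Larp4b, Pkhd1l1, Hoxc12 and Kdm5d. They were singled out after their values were seen.

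**Figure D4:**
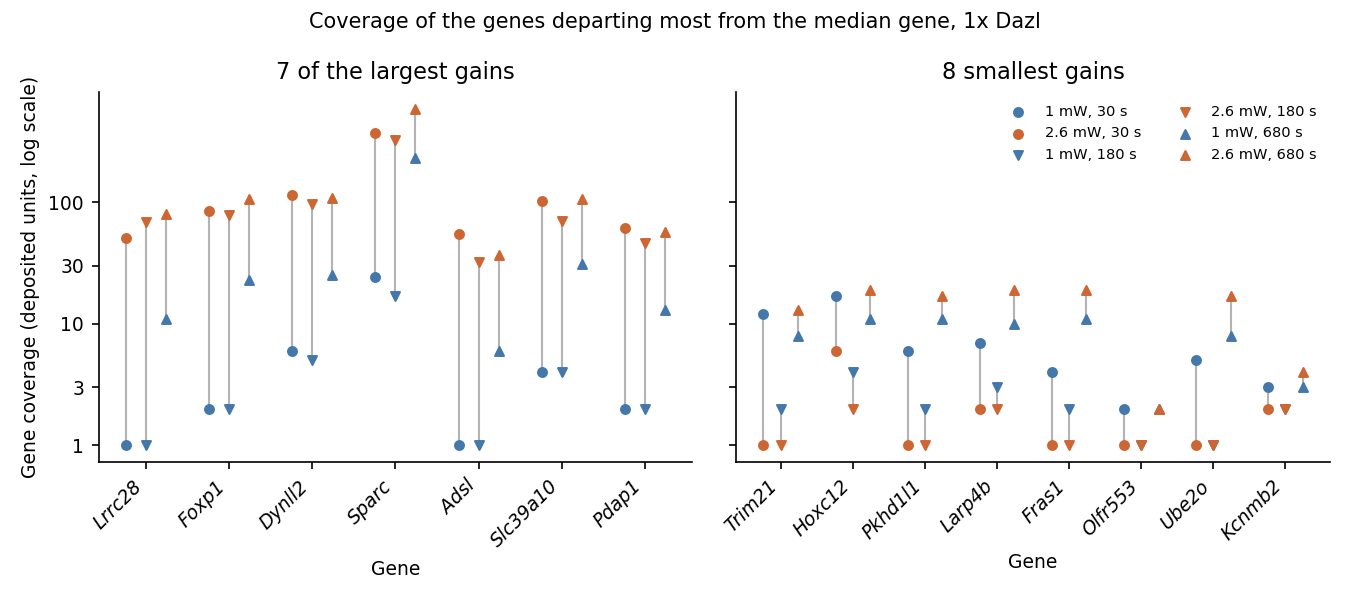
Coverage (log scale, deposited units) at 1 mW (blue) and 2.6 mW (orange), with a line joining the libraries of like time. Shown are 7 of the 8 genes with the largest gain relative to the median gene (left) and the 8 with the smallest (right). Lrrc28 goes from 1 to 51 at 30 s, while Trim21 goes from 12 to 1; at 680 s no gene is lower at 2.6 mW.

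Genes matched on their 680 s coverage still had unlike early ratios in these libraries. The matched comparison took the 30 and 180 s libraries, subtracted in each the median of genes in the same of 20 classes of 680 s coverage, and had 1 residual degree of freedom. It called 142 genes (4.43%) above and 214 (6.68%) below like genes, of which 115 and 169 were at the lowest value in both early libraries of 1 mW. With eBayes without trend and robust settings, or with intervals up to 50 nt apart joined, both counts were 0, so the differences are given below mainly as values.

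Genes above their number of regions in both early 1 mW libraries were ranked by their mean log2 ratio at 30 and 180 s in each of 5 classes of 680 s coverage. That filter uses the early 1 mW values that also enter the ratio and the matched test. A high early 1 mW value thus both admits a gene and lowers its ratio. Lrrc28, Foxp1, Pdap1 and Adsl, at the lowest value there, were not ranked. The highest and lowest genes were picked by the tested values, so their matched p-values are no separate support. Of the ranked genes in the highest class, Sparc had the highest ratio and Tmem64 the lowest. Sparc gained 1.02 ± 0.02 (SE, log2; limma adjusted p = 0.0327) more than like genes. Tmem64, a gene for a membrane protein, had 9 at 1 mW and 20 at 2.6 mW at 30 s, 6 and 16 at 180 s, and 32 and 90 at 680 s, and gained less than like genes by -1.53 ± 0.04 (adjusted p = 0.0492). In the fourth class Pggt1b, the beta subunit of a protein prenyltransferase, had 19 and 49 at 680 s and was at 6 at both powers at 30 s and at 3 at both at 180 s. Its matched difference was -2.17 ± 0.03 (SE, log2; limma adjusted p = 0.0268).

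In the middle class Pik3r1, the regulatory subunit of phosphoinositide 3-kinase, had 2 and 40 at 30 s, 2 and 31 at 180 s, and 13 and 45 at 680 s. Psmb7, a catalytic subunit of the proteasome, had 12 and 4, 4 and 2, and 11 and 29. Both have 1 region and like coverage at 680 s and 1 mW, and their early values were ordered oppositely between the powers. Neither passed the matched test (1.30 ± 0.19, adjusted p = 0.167; -2.27 ± 0.08, adjusted p = 0.0639). In the second class Mfsd11, a membrane protein of the transporter superfamily, had 2 and 23, 2 and 27, and 4 and 26, against Trim21 as the lowest. In the lowest class Rin3, an exchange factor of Rab5, had 2 and 16, 2 and 13, and 3 and 15. Malat1 and Neat1, matched at 680 s, had differences from like genes of 0.62 ± 0.05 and -0.25 ± 0.13 (adjusted p = 0.126 and 0.385).

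Every gene list with a median departure above 0 from the median gene had a lower median after matching on 680 s coverage, where the matched values use 30 and 180 s alone. The counts in each list are read against all genes, of which 73.3% rose as deposited, 12.0% gained more and 27.4% gained less than the median gene. Among chaperones, 19 of 22 genes with a region rose as deposited, 6 gained more and 2 less than the median gene, and the list's median departure was 0.75, against -0.03 over all genes. Against genes of like 680 s coverage it was -0.12, against -0.01, and 0 chaperones were above and 1 below. Of 15 hnRNP genes, which encode proteins that package and process nuclear RNA, 13 rose, with medians of 0.74 and 0.01. Hnrnpk, a poly(C)-binding protein, had 40 and 276 at 30 s and Hnrnpl 18 and 110. In the list of long and nuclear noncoding RNAs all 8 genes with a region rose, with medians of 0.73 and -0.07. All 11 SR splicing factors rose, with 0.64 and 0.14. Srsf1 had 27 and 226 at 30 s and 21 and 208 at 180 s.

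Lists of translation had higher shares of risen genes than the 73.3% of all genes, on few genes and with no test over a list. The median coverage was 20.8 in ribosomal proteins, 27 in initiation and elongation factors and 21.3 in mRNA decay. Over all genes it was 11.5, and its part in these shares was not tested. Of 22 ribosomal protein genes 21 rose, 5 gained more and 2 less than the median gene, against 12.0% and 27.4% of all genes. The medians of the list were 0.43 and 0.00. Rps3, a protein of the small subunit, had 11 and 164, 11 and 176, and 115 and 309. Rplp0, a stalk protein of the large subunit, had 13 and 177, 12 and 155, and 135 and 328, a gain of 1.33 ± 0.49 over the median gene (SE, log2; limma adjusted p = 0.0209). Of 15 initiation and elongation factors 14 rose, with medians of 0.62 and -0.05. The translocase Eef2 had 16 and 77 at 30 s and 8 and 74 at 180 s. Of 11 genes of mRNA decay and deadenylation 10 rose, with medians of 0.60 and 0.32. Cnot6, a nuclease of the Ccr4-Not complex, had 9 and 96, 9 and 95, and 58 and 196. Of 8 proteasome genes 6 rose, with 0.45 and 0.44, and Psmd14, a deubiquitinating subunit, had 8 and 96, 7 and 72, and 44 and 136.

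Of 27 cytoplasmic RNA regulators 20 rose, a share near the 73.3% of all genes, with medians of 0.16 and -0.22. Celf1, a GU-binding regulator of splicing and decay, had 19 and 145 at 30 s, and G3bp1, which nucleates stress granules, 12 and 103. Actin cytoskeleton genes had 26 of 30 risen, with medians of 0.49 and -0.21, and Actb had 8 and 127, 7 and 103, and 112 and 259. Collagens and matrix proteins had 23 of 28 risen, with -0.13 and -0.36. Of 8 immediate early and AU-rich mRNAs 7 rose, with 0.01 and -0.57. Jund, an AP-1 subunit, had 31 and 257 at 30 s, and Ccn2, a matricellular growth factor, 42 and 188. Solute carriers had 41 of 64 risen, with -0.24 and 0.00, and zinc finger proteins 29 of 42, with -0.29 and -0.46, both shares below the 73.3% of all genes. In solute carriers 12 gained more and 23 less than the median gene, and in zinc finger proteins 3 and 10, against 12.0% and 27.4% of all genes. The median coverage was 32.4 in chaperones, 37.8 in hnRNP genes, 28.9 in immediate early mRNAs, 27.9 in actin cytoskeleton genes, 18.8 in SR factors, 11.8 in proteasome genes, 11.5 in solute carriers and 9.17 in zinc finger proteins, against 11.5 over all genes, and its part in the departures was not tested.

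**Figure D5:**
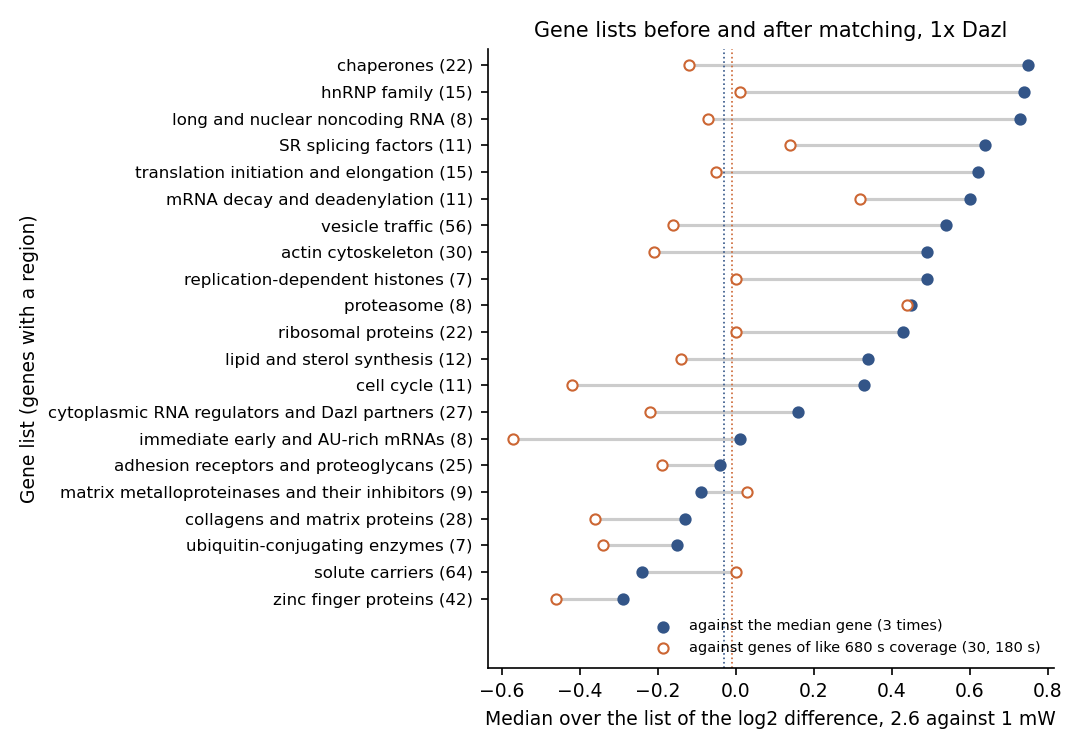
Median over each gene list (number of genes with a region in brackets) of the log2 difference between 2.6 and 1 mW, relative to the median gene over 3 times (filled) and relative to genes of like 680 s coverage at 30 and 180 s (open), with dotted lines at the medians of all genes. Chaperones go from 0.75 to -0.12 and ribosomal proteins from 0.43 to 0.00.

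Regions of the same gene responded differently. Of all 8338 regions, 6756 (81%) were higher at 2.6 mW at 30 s, 1397 equal and 185 lower, and the counts per gene are read against that share. Of 62 Neat1 regions, 52 were higher at 2.6 mW at 30 s, 5 lower and 5 equal, with log2 ratios from -1.28 to 3.13. The share of higher regions in Neat1 was thus near that of all regions. Of 38 Malat1 regions 35 were higher and 1 lower. One Malat1 region, at chr19:5800191-5800207, stayed at 1 at both powers at 30 and 180 s and had 22 and 36 at 680 s. Another, at chr19:5798271-5798287, went from 1 to 37 at 30 s and from 1 to 30 at 180 s, with 18 and 36 at 680 s. These regions had equal coverage in the strongest library and differed in every early library of 2.6 mW. All 27 regions of Scd2 and all 22 of Sdc4 were higher at 2.6 mW at 30 s.

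At 30 and 180 s the median coverage at 2.6 mW differed with the place in the gene. A strand was known for 2553 genes (79.7%) with 6215 regions, of which 2320 (37.3%) lay within 1000 nt of the 3′ end of the gene span and 369 (5.94%) within 1000 nt of the 5′ end. At 30 s the median coverage was 1 at 1 mW in each place and rose to 9 near 3′ ends, 4 near 5′ ends and 6 elsewhere. At 180 s the 2.6 mW medians were 10, 4 and 6. At 680 s they were 23, 21 and 21. The quartiles of the log2 ratio at 30 s overlapped: 0.485 and 2.17 near 3′ ends, 0 and 1.7 near 5′ ends, and 0.322 and 1.91 elsewhere. The places were not matched on gene coverage or region length. Regions share libraries and genes, so no test was made. Spans include introns, and exons were not annotated.

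At 4.2x Dazl the same step in power gave smaller ratios of totals at each time: 2.33-fold at 30 s, 3.84-fold at 180 s and 1.64-fold at 680 s, a mean log2 ratio of 1.29 ± 0.615 (SD, n = 3 pairs) against 2.31 ± 0.833 at 1x. The difference of means was -1.01, and it was not tested. The median gene's log2 ratio at 30, 180 and 680 s was 0.939, 1.58 and 0.628 at 4.2x, against 1.32, 1.58 and 1.14 at 1x. At 180 s the median gene thus gained the same at both Dazl levels, although the ratio of totals was smaller at 4.2x. After centring, 1 gene (0.0312%) had a laser effect that differed between the Dazl levels in limma, with 672 at an unadjusted p under 0.05. This gene, Lrrc28, had 41 and 83 at 30 s, 33 and 83 at 180 s, and 53 and 83 at 680 s with 4.2x Dazl. Its effect at 4.2x minus that at 1x was -2.27 ± 0.37 (SE, log2; adjusted p = 0.0209). With regions that touch 1 gene only, Lrrc28 did not enter and the count was 0. With the 30 s or the 180 s libraries left out the count was 0, and with those of 680 s left out it was 1088.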

How the data were processed

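The deposited values are a score that the authors call normalized coverage, 1 whole number per interval; the tools named in the submitters' processing notes are FastQC and Bowtie2, with the build mm10. How reads were counted, normalized and selected was not stated in what was used here, so no counting interval is given. Files of 0 s samples were not used here.

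Intervals at most 10 nt apart were joined over 12 libraries and width times value was summed. A region counted for a gene of the RefSeq table of GRCm38.p6 if it touched 1 span, or 1 protein-coding span among several. Genes were tested with limma 3.58.1 (R 4.3.3) on log2(value + 3), with eBayes trend and robust, time as a block and Benjamini-Hochberg adjusted p under 0.05 over all genes. This left 2 residual degrees of freedom (1 in the matched fit, 4 with both Dazl levels). The prior degrees of freedom of eBayes had a median of 11.38 as deposited, 12.09 in the filtered fit and 0.317 in the matched fit. In the fit centred on the median gene the prior was infinite, so its p-values rest on spread pooled over genes. The fits were tested on simulated data. With all library totals set to the highest, independent draws and no lowest value, they recovered known changes. The real libraries differ from that setting in each of these respects. With the real, unequal totals the centred fit also called genes made without a departure, and the matched fit missed known ones, so their counts are given with the values.

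Named genes are the 10 highest by mean coverage over the 6 libraries, the 8 largest departures in each direction (adjusted p under 0.05, same sign in 3 of 3 pairs), the highest and lowest early ratio in each of 5 classes of 680 s coverage among genes above their number of regions in both early 1 mW libraries, and the 2 highest genes of each list. Not every gene that this rule names is described, and some are not reported here. Sites with printed sequence, single regions and some pairs were picked from those lists after their values were seen. The genes, lists and tests were chosen with earlier results of these data known. Other pseudocounts, joining distances, filters, centring, matching and left-out times were tried as alternatives.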

Additional observations from a re-analysis of the deposited data

Results flagged for a closer look

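One gene differed in its response to laser power between the Dazl levels by a test of the difference itself. Lrrc28 went from 1 to 51, from 1 to 69 and from 11 to 80 at 1x Dazl, and from 41 to 83, from 33 to 83 and from 53 to 83 at 4.2x Dazl, at 30, 180 and 680 s. Its median-centred laser effect at 4.2x minus that at 1x was -2.27 ± 0.37 (SE, log2; limma interaction adjusted p = 0.0209). It was -2.19 without the 30 s libraries (adjusted p = 0.162), -1.92 without the 180 s libraries (adjusted p = 0.792) and -2.69 without the 680 s libraries (adjusted p = 0.0043). Its value of 83 was the same in all 3 libraries of 2.6 mW and 4.2x Dazl, and both early values at 1 mW and 1x Dazl were at the lowest value. Its single region also lies in the span of a noncoding RNA gene, so without strand the gene name is not secure. With regions that touch 1 gene only it did not enter, and no gene passed.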

How the results depend on the processing

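Each condition has 1 library, and libraries were paired by time, which was the block of each fit. The mean log2 ratio of totals lay between 2 and 2.78 with 1 time left out. Genes higher as deposited numbered 0 to 1756 with 1 time left out and 0 without the time block. Genes above and below the median gene numbered 20 and 15 in the 1778 genes of higher coverage, and 225 and 27 without the time block. Above it were 704 with all 12 libraries, 107 centred on genes above the lowest value and 36 scaled to totals. With 1 time left out they numbered 1 to 620 above and 199 to 765 below. Genes above and below like genes numbered 76 and 137 in genes of higher coverage, and 0 and 0 with 50 nt joining or with eBayes without trend and robust. Genes whose laser effect differed between Dazl levels numbered 3 with a pseudocount of 10, 0 with regions in 1 gene only or plain eBayes, and 0 to 1088 with 1 time left out. Scaled to totals, the departures of Neat1, Pdia3 and Thbs1 turned to -0.12, -0.07 and -0.14, none past the threshold. The matched difference of Mfsd11 turned to -0.06 among genes of higher coverage. Of 458 values of named genes under the alternatives, 375 kept their direction and side of the threshold, 54 kept their direction and lost the call, and 25 gained one. Depth in reads is unknown, and 74% and 80.5% of regions stood at the lowest value of 1 in the 30 and 180 s libraries of 1 mW.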
